A study of Mus musculus with 24 samples.

Results

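The mitochondrial ribosomal protein genes, named Mrpl for the large and Mrps for the small subunit, were examined in class IV mouse oocytes grown in vitro in 5% or 20% O2. Members were the rows of the RNA-seq table whose gene symbol is Mrpl or Mrps followed by a number and at most 1 letter. This rule took 78 of 16572 gene names, 49 of them Mrpl and 29 Mrps, and no member had more than 1 row. All 78 had reads in both conditions and a mean of at least 1 RPM (reads per 1000000 reads), the filter for comparing a gene between conditions.

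The oocytes were labelled as C57BL/6 Barb (the study's methods name a cross of C57 Black6 and SV129 backgrounds), came from ovaries of mice aged 7 days, and were grown outside follicles on gelatine-coated plates. The labels give a size of 60 to 70 µm for both conditions, whereas the study's methods give a smaller range for class IV oocytes grown in 20% O2. IV 5% O2 oocytes were cultured for 9 days and IV 20% O2 oocytes for 14 days, and the medium was renewed more often in 5% O2, so that oxygen, time in culture, feeding and oocyte size cannot be told apart. Each condition had 2 libraries, prepared from pooled oocytes, but the deposited table holds 1 column per condition, and no spread between replicates can be given. Every difference below is therefore between 2 pooled columns with no test across samples, and the intervals given are exact 95% Clopper-Pearson intervals that cover counting error only.

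The mitochondrial ribosome translates the few proteins that mitochondrial DNA encodes, all of them subunits of the respiratory chain or the ATP synthase. Its RNAs come from mitochondrial DNA, whereas all of its proteins are encoded in the nucleus, made in the cytosol and imported. Some of them descend from proteins of the bacterial ribosome and others are found only in mitochondrial ribosomes, and the mitochondria that a growing oocyte accumulates are those passed to the embryo.

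The promoters of 6 members are printed because these genes carry the largest differences described below or share a start region. Mrpl28 and Mrpl14 had the highest and lowest difference among the large subunit genes and Mrps27 and Mrps33 among the small subunit genes, while Mrpl46 and Mrps11 are transcribed head to head. Each sequence runs 5′ to 3′ from 250 bases before to 50 bases after the RefSeq start, in GRCm38.p6. Capitals mark matches, on either strand, to 4 searched letter strings, for NRF1, ETS factors, YY1 and the TATA box. The NRF1 string was GCGCANGC, an 8-letter part of the consensus and so less specific than the whole site. The string searched for ETS factors was CCGGAAG. The YY1 string was AAGATGG, and the string for the TATA box was TATAAA.
Mrpl28, chr17:26123253-26123552, + strand: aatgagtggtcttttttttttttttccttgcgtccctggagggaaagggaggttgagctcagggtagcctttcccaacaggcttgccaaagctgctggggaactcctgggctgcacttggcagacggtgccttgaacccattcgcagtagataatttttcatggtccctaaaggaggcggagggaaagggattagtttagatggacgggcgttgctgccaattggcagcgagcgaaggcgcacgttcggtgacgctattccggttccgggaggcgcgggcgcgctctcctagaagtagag
Mrpl14, chr17:45686099-45686398, + strand: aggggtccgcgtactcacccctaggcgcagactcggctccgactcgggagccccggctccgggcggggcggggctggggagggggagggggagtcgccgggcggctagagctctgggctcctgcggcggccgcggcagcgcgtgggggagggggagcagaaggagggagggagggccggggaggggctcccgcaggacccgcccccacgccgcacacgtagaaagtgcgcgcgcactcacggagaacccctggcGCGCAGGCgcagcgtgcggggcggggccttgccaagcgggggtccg
Mrps27, chr13:99344536-99344835, + strand: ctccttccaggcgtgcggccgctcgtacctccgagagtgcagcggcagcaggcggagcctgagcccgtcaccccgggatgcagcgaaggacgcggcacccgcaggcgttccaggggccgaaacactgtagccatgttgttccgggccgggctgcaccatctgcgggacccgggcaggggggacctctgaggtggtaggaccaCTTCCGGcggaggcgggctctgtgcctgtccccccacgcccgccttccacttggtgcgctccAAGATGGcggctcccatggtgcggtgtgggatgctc
Mrps33, chr6:39810887-39811186, - strand: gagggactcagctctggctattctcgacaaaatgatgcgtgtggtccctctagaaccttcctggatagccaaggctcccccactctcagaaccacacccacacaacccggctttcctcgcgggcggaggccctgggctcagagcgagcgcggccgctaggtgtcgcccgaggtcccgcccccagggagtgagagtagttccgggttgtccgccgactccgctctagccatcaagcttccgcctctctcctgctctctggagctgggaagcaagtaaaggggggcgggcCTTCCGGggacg
Mrpl46, chr7:78783040-78783339, - strand: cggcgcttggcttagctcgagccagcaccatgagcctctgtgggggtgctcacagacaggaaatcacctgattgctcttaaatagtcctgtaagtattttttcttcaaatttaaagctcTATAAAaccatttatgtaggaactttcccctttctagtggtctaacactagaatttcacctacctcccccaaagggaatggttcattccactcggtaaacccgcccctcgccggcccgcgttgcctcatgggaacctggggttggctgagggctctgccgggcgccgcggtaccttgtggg
Mrps11, chr7:78782881-78783180, + strand: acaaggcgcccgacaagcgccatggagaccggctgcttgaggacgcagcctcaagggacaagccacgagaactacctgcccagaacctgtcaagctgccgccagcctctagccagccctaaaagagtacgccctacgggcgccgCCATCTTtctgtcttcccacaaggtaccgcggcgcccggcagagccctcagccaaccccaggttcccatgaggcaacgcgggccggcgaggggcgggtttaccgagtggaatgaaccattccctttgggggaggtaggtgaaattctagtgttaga

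The windows of Mrps27 and Mrps33 both held the ETS string, although these genes lay at opposite ends of the small subunit differences. Mrps27 also held the YY1 string after its start, Mrpl14 held the NRF1 string, Mrpl28 held none of the 4, Mrps11 held the YY1 string and Mrpl46 the TATA string. In the GENCODE annotation the Mrpl46 gene (chr7:78775236-78783531, - strand) and the Mrps11 gene (chr7:78783119-78792989, + strand) overlap by 413 bp at their starts, and the RefSeq windows of the pair share part of their letters.

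Of the 78 members, 69 had an entry among the RefSeq promoters, with 75 promoters in all. The ETS string was found in 34.7% of the 75 member promoters, in 16.4% of the 13809 promoters of genes tested and in 8.86% of all 32851 promoters. The NRF1 string was found in 29.3% of member promoters, 18.5% of those of genes tested and 9.95% of all, and the YY1 string in 17.3%, 6.97% and 6.34%, respectively. TATAAA was in 6.67% of member promoters, against 7.80% for genes tested and 13.6% for all promoters. These are matches to letters in a short window and not sites bound by a factor.

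The 26 members with an ETS string had a median difference of -0.44 between the conditions, on the log2(RPM + 1) scale and as IV 5% O2 minus IV 20% O2, and 20 of them were lower in IV 5% O2 oocytes, against 37.4% of all genes tested. The 43 members without it had a median of 0.14, and 21 of them were lower. With the NRF1 string the median was -0.34 (22 members), and without it -0.07 (47 members). With the YY1 string it was -0.27 (13 members) against -0.17 without, and the 5 members with TATAAA had a median of 0.38, with 1 lower, against -0.21 without. Members also often started back to back with another gene. A divergent start of a protein-coding gene, at most 1000 bp away or overlapping by at most 100 bp, was found for 19 of 78 members (24.4%), against 10.3% of 14097 protein-coding genes of the table. In the GENCODE annotation used for this count the Mrpl46 and Mrps11 pair overlaps by more and is not among the 19. The RefSeq starts behind the printed windows of this pair lie apart and do not overlap. These partners included Ndufs6 for Mrpl36, Fau for Mrpl49, Psma2 for Mrpl32 and the mitochondrial seryl-tRNA synthetase gene Sars2 for Mrps12. The members lay on 17 chromosomes.

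The depth recovered from the columns was 132185252 reads for IV 5% O2 and 40875358 for IV 20% O2, so that the smallest level resolved, 3 reads, was 0.0227 and 0.0734 RPM. Oocyte identity of both columns was checked with 11 oocyte markers, which ranged from 28.3 to 2346 RPM in IV 5% O2 oocytes, whereas the range was 40.5 to 3807 RPM in IV 20% O2. They summed to 9704 against 13243 RPM, with a median difference of -0.26 and 10 of 11 below the median gene. Zp2 and Zp3 were at least 2-fold lower in IV 5% O2 oocytes. In the other direction, 4 of the 11 were higher there, Nobox the most (496 against 271 RPM, difference 0.87). Of 15 theca and stroma markers 10 were in the table, with summed levels of 45.3 RPM in IV 5% O2 against 5.48 RPM in the other condition, where IV 20% O2 oocytes had Col1a2, Dcn and Vim at 0. The 7 granulosa markers in the table of 10 summed to 75.6 and 62.0 RPM, with Fshr at 0 in IV 5% O2 and Inha at 0 in IV 20% O2. The sums were 17.9 and 21.1 RPM for 3 of 5 macrophage markers (Lyz2 at 0 in IV 20% O2) and 61.0 and 36.1 RPM for 3 of 4 endothelial markers (Kdr at 0 in IV 20% O2), and none of the 4 erythroid markers was in the table. The part that RNA of other cells had in the members' differences was not tested. Less RNA per oocyte and fewer oocytes cannot be told apart in such pools.

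The members together took 0.280% of the reads on genes in IV 5% O2 oocytes and 0.310% in IV 20% O2 oocytes. Their summed level per depth was 2325 against 2257 RPM, the other direction, since the columns differ in the share of reads on genes. In IV 5% O2 oocytes their levels spanned 2.01 to 166 RPM, and in IV 20% O2 oocytes 6.48 to 103 RPM. The lower end of the range was therefore further down in IV 5% O2 oocytes and the upper end further up.

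**Figure D1:**
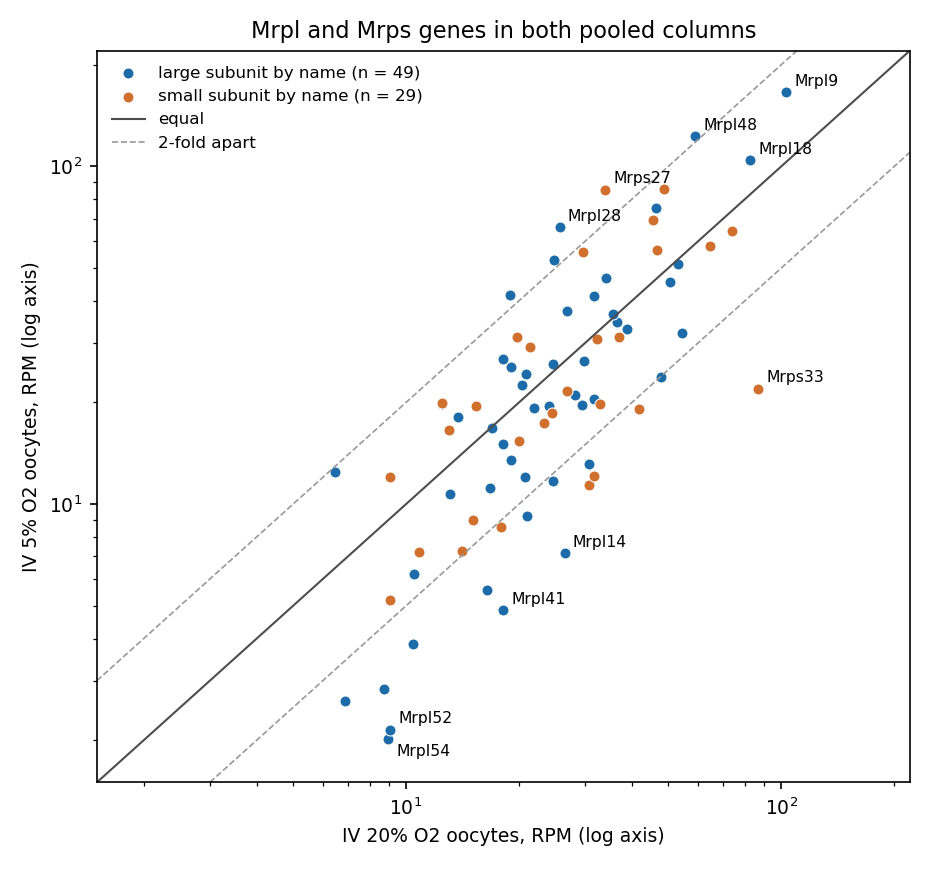
Level of each member in IV 20% O2 (x axis, RPM, log scale) and IV 5% O2 oocytes (y axis, RPM, log scale), 1 point per gene, blue for 49 Mrpl and orange for 29 Mrps genes, with the line of equality and dashed lines at 2-fold. Mrpl9 is at the top with 166 and 103 RPM, and Mrpl54 at the bottom with 2.01 and 8.98 RPM.

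Most members were lower in IV 5% O2 oocytes, 48 of 78, against 37.4% of the 14704 genes tested. The median difference was -0.21, with an interquartile range of -0.73 to 0.38 and single genes from -1.93 to 1.33. Over all genes tested the median was 0.26, so that the members' median lay at -0.47 relative to the median gene, and 26 of 78 members were above it. This relative value ran from -0.50 to -0.38 over the other settings tried.

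At least 2-fold lower in IV 5% O2 oocytes were 15 members (19.2%), against 9.22% of all genes tested, and at least 2-fold higher were 5 members (6.41%), against 18.7% of all genes tested. After median-ratio scaling 21 members were at least 2-fold lower, against 13.9% of all genes, and 1 was higher, against 11.6%. After quantile normalization 18 were lower, against 12.7%, and 2 were higher, against 12.0%. Under those scalings the share of higher genes among all genes 2-fold apart went from 67.0% to 45.6% and 48.6%. A pseudocount of 5 RPM in place of 1 left 6 lower and 2 higher members, against 4.80% and 8.17% of all genes. The counting interval of the RPM ratio included equality for Mrpl3, Mrpl10, Mrpl13, Mrpl38, Mrpl47 and Mrps14. Such intervals are narrow at these depths. The share of all genes tested whose interval left out equality was not computed.

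Among genes named for the large subunit, 4 were at least 2-fold higher in IV 5% O2 oocytes (8.16%, against 18.7% of all genes tested). Mrpl28, whose product bL28m has a bacterial homologue, was at 66.1 RPM in IV 5% O2 oocytes, against 25.7 RPM in IV 20% O2 oocytes. Mrpl48, which encodes a protein particular to mitochondrial ribosomes, was at 123 and 59.1 RPM. Each of these levels was thus more than doubled in IV 5% O2 oocytes. Mrpl45, for a protein near the tunnel exit that helps to hold the ribosome at the inner membrane, was at 52.7 and 24.8 RPM. Mrpl46, the head-to-head neighbour of Mrps11, was at 41.7 and 19.0 RPM. As differences in log2(RPM + 1) these were 1.33 for Mrpl28, 1.10 for Mrpl46, 1.06 for Mrpl45 and 1.04 for Mrpl48, and Mrpl28 alone stayed above 2-fold with median-ratio scaling (1.02). Mrpl39 followed with 12.4 and 6.48 RPM and a difference of 0.85.

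At least 2-fold lower in IV 5% O2 oocytes were 11 large subunit genes (22.4%, against 9.22% of all genes tested). Their levels there spanned 2.01 to 13.2 RPM. Mrpl14, for a protein at the face that meets the small subunit, had 7.16 RPM in IV 5% O2 against 26.5 RPM in IV 20% O2, a difference of -1.75. Mrpl54 had 2.01 against 8.98 RPM, a difference of -1.73 in log2(RPM + 1) and the largest RPM ratio of these 11, at 4.46-fold with a log2 counting interval of -2.39 to -1.93. The interval of Mrpl14, from -2.01 to -1.76, was narrower because more reads stood behind it. Mrpl41 had 4.86 against 18.2 RPM (-1.71) and Mrpl52 had 2.15 against 9.05 RPM (-1.67), both for proteins particular to mitochondrial ribosomes. Mrpl36, for a small protein kept from bacteria, had 5.58 against 16.4 RPM (-1.41). These 5 had the lowest differences of the large subunit genes.

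The other 6 of the 11 lay between -1.35 and -1.01. Mrpl23, whose product lines the region of the tunnel exit, had 2.83 RPM in IV 5% O2 against 8.76 RPM in IV 20% O2. Mrpl43 had 3.85 against 10.4 RPM and Mrpl55 had 13.2 against 30.7 RPM. Mrpl53 had 2.61 against 6.90 RPM, Mrpl50 had 9.24 against 21.1 RPM and Mrpl57 had 11.7 against 24.6 RPM. Mrpl53 shares 88.0% of its exonic bases with the same-strand gene Gm42688, and 33.4% of those of Mrpl43 lie opposite Twnk, the mitochondrial DNA helicase gene. Reads of genes that overlap on the same strand cannot be separated by strand. Those of genes on opposite strands may not be separated either, because the strand setting of the counting is not given in the sources used here. Short of 2-fold only through the pseudocount was Mrpl12, for the stalk protein that contacts translation factors, with 23.8 against 47.9 RPM, a ratio of 2.02, and a difference of -0.98 in log2(RPM + 1).

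Of the small subunit genes, Mrps27 was the only one at least 2-fold higher in IV 5% O2 oocytes (3.45%, against 18.7% of all genes tested). This gene, for a pentatricopeptide repeat protein, had 85.3 RPM in IV 5% O2 oocytes against 34.0 RPM, a difference of 1.30 with a log2 counting interval of the ratio from 1.25 to 1.41. With median-ratio scaling the difference was 0.99, just under 2-fold, and 24.2% of its exonic bases lie opposite 6430562O15Rik. Mrps31 (56.0 and 29.7 RPM, difference 0.89), Mrps25 (85.7 and 48.7 RPM, 0.80), Mrps11 (31.3 and 19.8 RPM, 0.64) and Mrps5 (19.9 and 12.5 RPM, 0.63) came next. Mrps25 lies opposite Nr2c2 over 69.8% of its exonic bases. Mrps11 and its head-to-head neighbour Mrpl46 were thus both higher in IV 5% O2 oocytes, Mrps11 by less. Of their exonic bases, 12.2% of those of Mrpl46 lie opposite Mrps11 and 7.97% of those of Mrps11 opposite Mrpl46.

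On the log2(RPM + 1) scale Mrps33 had the lowest difference of all members, with 22.0 RPM in IV 5% O2 against 86.6 RPM in IV 20% O2. Its difference in log2(RPM + 1) was -1.93, and its RPM ratio, without a pseudocount, was 3.94-fold with a log2 counting interval of -2.05 to -1.91. By that ratio Mrpl54 (4.46-fold) and Mrpl52 (4.21-fold) lay further apart than Mrps33. Mrps21 had 11.4 against 30.7 RPM (-1.35), and Mrps24, for a protein where the mRNA enters, had 19.1 against 41.7 RPM (-1.08). Mrps36 had 12.1 against 31.8 RPM (-1.32), although this gene, named as a ribosomal protein, is now known to encode a part of the 2-oxoglutarate dehydrogenase complex. Mrps16, with 8.58 against 17.9 RPM, had a ratio of 2.08 but fell short of 2-fold in log2(RPM + 1), at -0.98. Parts of 3 of these genes also occur elsewhere in the genome, since 41.9% of the 100-base exonic windows of Mrps36, 39.4% of those of Mrps21 and 25.9% of those of Mrps33 were repeated, and reads of such copies may not be separated from their own.

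**Figure D2:**
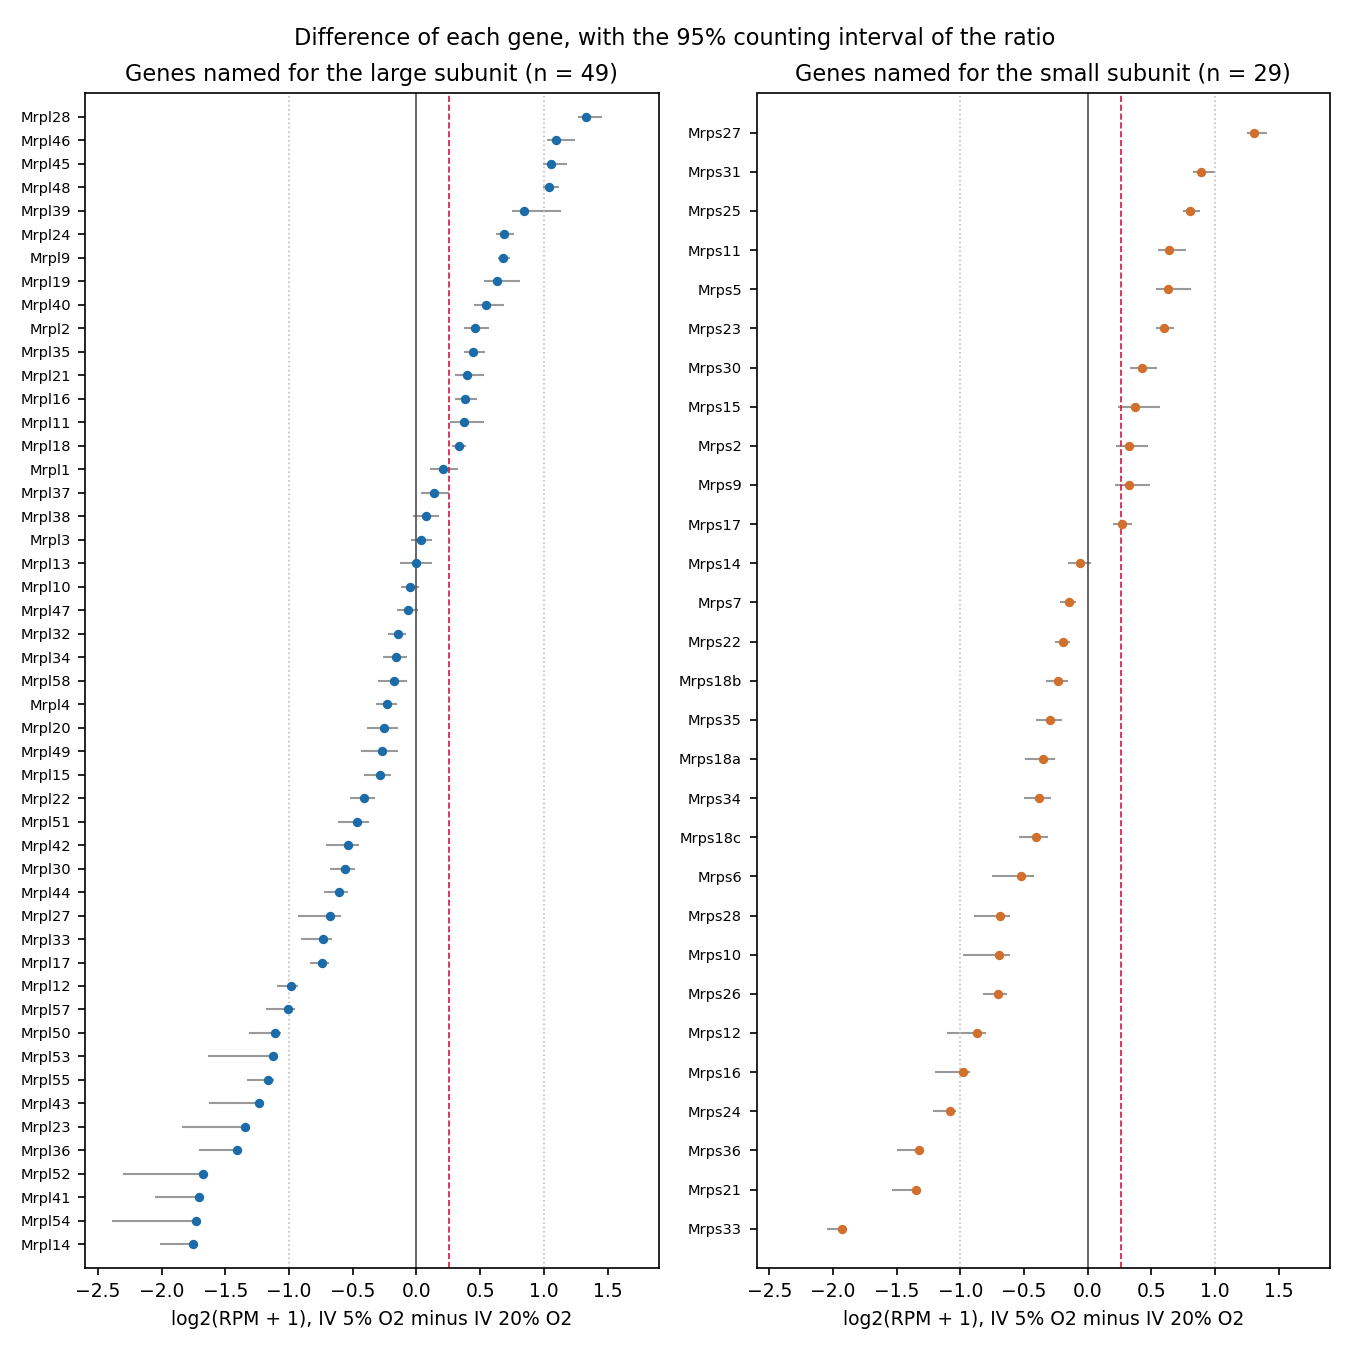
Difference of each gene in log2(RPM + 1), IV 5% O2 minus IV 20% O2 (x axis), for 49 Mrpl (left, blue) and 29 Mrps genes (right, orange), sorted, with grey bars for the 95% counting interval of the log2 RPM ratio, which has no pseudocount and so reaches further from 0 for genes of low level. The dashed red line is the median of all genes tested (0.26), the solid line is 0 and dotted lines mark 2-fold. The points run from -1.75 to 1.33 in the left and from -1.93 to 1.30 in the right panel.

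Large and small subunit genes had similar medians and quartiles of the differences. The medians were -0.18 for the 49 large and -0.23 for the 29 small subunit genes, and the interquartile ranges were -0.74 to 0.38 and -0.70 to 0.37. Relative to the median gene the medians were -0.44 and -0.49, with 15 of 49 and 11 of 29 genes above it. The gap of 0.05 between the medians turned to -0.028 once 4 genes with at least 10% of 100-base windows repeated (Mrps18b, Mrps21, Mrps33 and Mrps36) were left out.

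As sums, the large subunit genes held 1464 RPM in IV 5% O2 oocytes against 1368 RPM in IV 20% O2 oocytes, a log2 ratio of 0.10. The small subunit genes held 861 and 889 RPM, a log2 ratio of -0.05. The sums moved in opposite directions, but after median-ratio scaling the log2 ratio was -0.22 for the large and -0.37 for the small subunit genes, so that the direction of the large subunit sum depended on scaling.

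To set levels of different genes side by side, RPM were divided by exonic length. The large subunit genes had a median of 13.8 RPM per kilobase in IV 5% O2 and 14.2 in IV 20% O2, and the small subunit genes 14.1 and 18.4. The large subunit median was thus 0.977 times the small subunit median in IV 5% O2 oocytes and 0.771 times in IV 20% O2 oocytes. With members sorted by position in the ribosome and Mrps36 left out, the large and small medians were 13.8 and 13.5 in IV 5% O2. In IV 20% O2 they were 14.2 and 16.7, so that the order turned in IV 5% O2 only. Over all genes tested the medians were 6.15 and 5.48 RPM per kilobase, below both subunits in both conditions.

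Ranked by the mean of both columns, the highest levels per kilobase among large subunit genes, given here for IV 5% O2 and then IV 20% O2, were those of Mrpl18 (85.5 and 67.8 RPM per kilobase), whose bacterial homologue binds the small ribosomal RNA of the large subunit, Mrpl9 (64.01 and 39.7) and Mrpl34 (43.7 and 49.0). The lowest by this mean were Mrpl19 (3.97 and 2.50), Mrpl15 (3.69 and 4.56) and Mrpl39 (5.42 and 2.83). By the same mean, among small subunit genes Mrps22 (54.0 and 61.8), Mrps21 (23.2 and 62.3) and Mrps23 (48.6 and 31.9) were highest, Mrps21 through IV 20% O2 alone and with the repeated windows given above, and Mrps5 (4.45 and 2.79), Mrps16 (3.34 and 6.95) and Mrps35 (5.21 and 6.44) were lowest. The gene with the highest level per kilobase was thus a large subunit gene in both conditions. RNA levels per kilobase spread over more than a factor of 10 in both sets of genes and in both conditions.

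**Figure D3:**
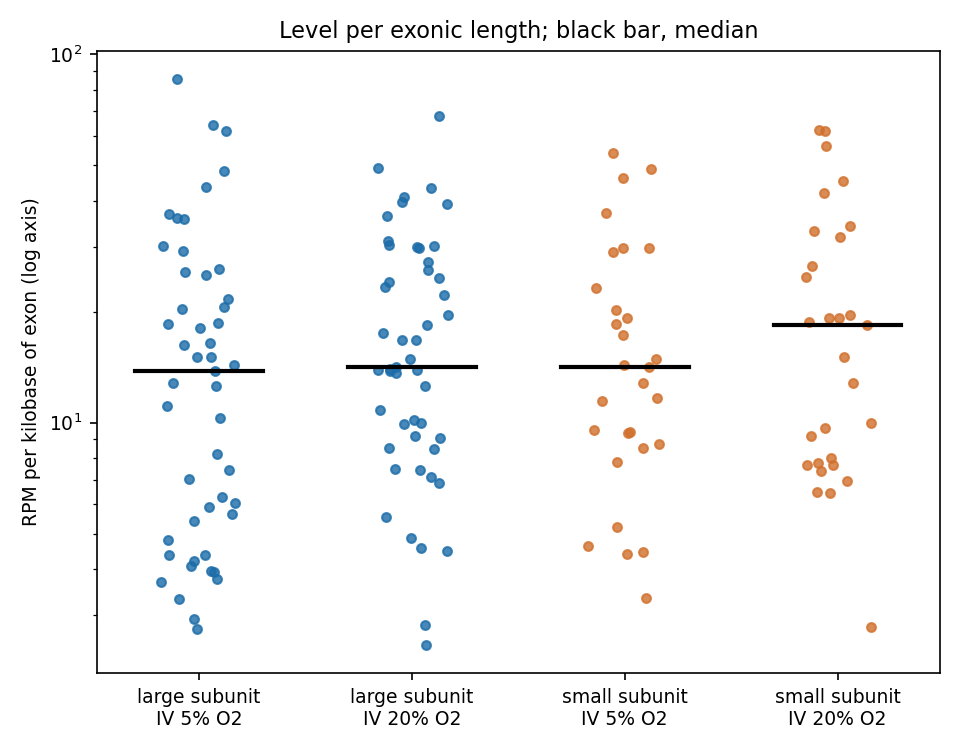
Level of each member per exonic length (y axis, RPM per kilobase, log scale) for large and small subunit genes in IV 5% O2 and IV 20% O2 oocytes, 1 point per gene, spread sideways only to separate them, with black bars for the medians of 13.8, 14.2, 14.1 and 18.4 RPM per kilobase, from left to right. The points of the 4 columns overlap over most of their range.

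The position of a protein in the ribosome does not always follow the gene's name. Mrps30 and Mrps18a encode proteins of the large subunit, now called mL65 and mL66. Mrps30 had 29.1 RPM in IV 5% O2 oocytes against 21.5 RPM (difference 0.42), and Mrps18a had 15.4 and 20.0 RPM (-0.35). The paralogues of Mrps18a stayed in the small subunit, Mrps18b with 31.2 and 36.9 RPM (-0.23) and Mrps18c with 17.4 and 23.3 RPM (-0.41). All 3 Mrps18 genes were therefore lower in IV 5% O2 oocytes, by less than 2-fold, and 34.8% of the 100-base windows of Mrps18b were repeated. With members sorted by position and Mrps36 left out, the medians were -0.18 for 51 large and -0.21 for 26 small subunit genes.

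By origin, the 30 large subunit proteins with a bacterial homologue had a median difference of -0.11, with 1 gene at least 2-fold higher in IV 5% O2 oocytes (3.33%, against 18.7% of all genes tested) and 4 lower (13.3%, against 9.22%). The 21 large subunit proteins particular to mitochondrial ribosomes had a wider spread, a median of -0.35, an interquartile range of -1.11 to 0.42, and 3 genes higher (14.3%) and 7 lower (33.3%). The 16 small subunit proteins with a bacterial homologue had a median of -0.28, none higher and 2 lower (12.5%). The 10 small subunit proteins particular to mitochondria had a median of -0.21, with Mrps27 higher and Mrps33 lower, 10.0% each. The lower shares of both small subunit classes and of the large subunit homologues were thus near that of all genes. All 4 medians were below that of all genes tested.

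Short members were mostly lower in IV 5% O2 oocytes. Of 22 members with up to 1000 bases of exon, 21 were lower, the exception being Mrps15 (12.0 and 9.08 RPM, difference 0.37), and 9 were at least 2-fold lower (40.9%), against 25.1% of all tested genes of that length. Their median was -0.71, against -0.10 for these 1250 genes, of which 653 were lower (52.2%). Of 56 members with more than 1000 bases, 27 were lower and 6 at least 2-fold lower (10.7%, against 7.74% of the longer genes tested), with a median of 0.06, against 36.0% lower and a median of 0.28 for the 13442 longer genes. Both subunits showed this, with 13 of 13 large and 8 of 9 small subunit genes lower among the short ones, and medians of 0.06 and 0.10 among the long ones.

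Across the 78 members, the difference correlated with log2 exonic length at a Spearman's rho of 0.46 and a Pearson's r of 0.41, and over 14692 genes at a rho of 0.00 and an r of 0.08. With the length of all annotated transcripts the members' rho was 0.35. The difference correlated with the mean level at a rho of 0.50, a value that shares its columns with the difference, and with the GC content of exons at -0.20. The levels in the pair of columns correlated across members at an r of 0.78, against 0.88 over all genes tested. These are descriptions across genes of the same libraries, and genes are not independent replicates. The part that the recovery of short RNAs in the libraries had in these values was not tested.

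**Figure D4:**
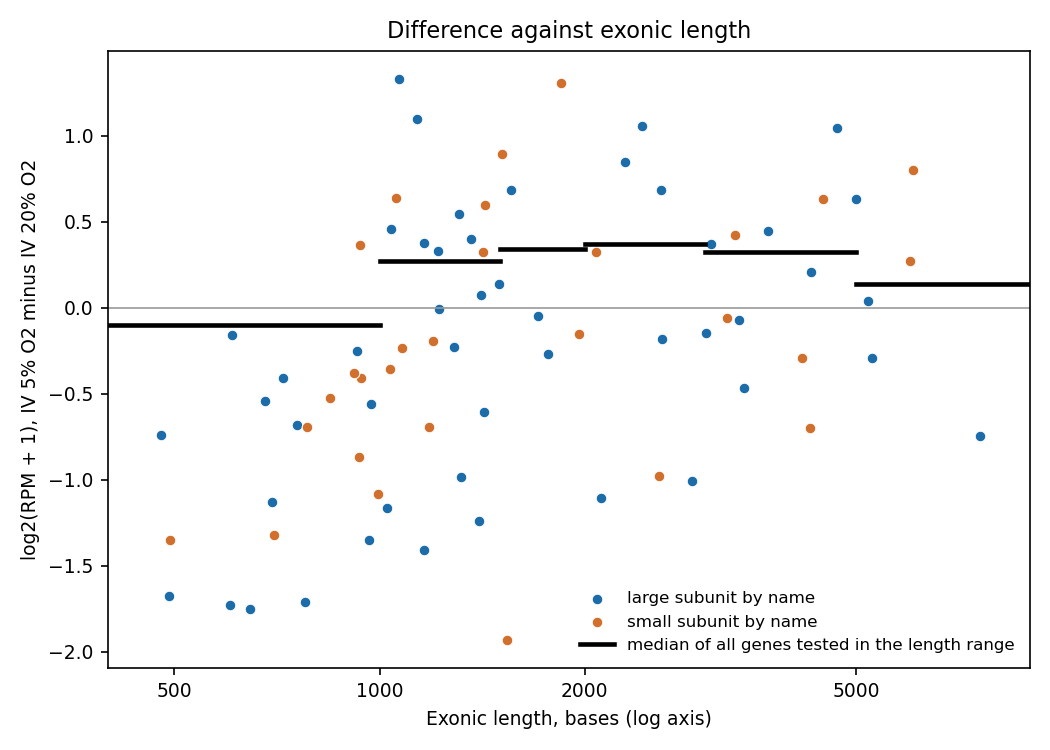
Difference of each member in log2(RPM + 1), IV 5% O2 minus IV 20% O2 (y axis), against exonic length in bases (x axis, log scale), blue for Mrpl and orange for Mrps genes, with black bars for the median of all genes tested in each length range. Left of 1000 bases 21 of 22 members are below 0, and to the right the points lie on both sides of 0.

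Other gene groups of the same machinery were set beside the members. The 5 genes listed as mitochondrial ribosomal proteins with other kinds of names were all in the table. The list's other symbols, Mrp63 and Ict1, are older names of the members Mrpl57 and Mrpl58. Chchd1, for a small subunit protein, had 5.67 RPM in IV 5% O2 against 24.5 RPM in IV 20% O2 (difference -1.94), about as low as Mrps33. Dap3, for the GTP-binding protein of the small subunit, had 155 against 80.0 RPM (0.95), Gadd45gip1 95.5 against 60.2 RPM (0.66), Ptcd3 54.9 against 39.0 RPM (0.49) and Aurkaip1 27.1 against 45.8 RPM (-0.74). The 5 genes thus lay on both sides of 0, with a median of 0.49.

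The 27 genes listed for assembly of the mitochondrial ribosome, under 33 current and older symbols, were all in the table. Their median difference was 0.27, close to that of all genes. After median-ratio scaling it was -0.0072, and that of all genes -0.04. At least 2-fold higher in IV 5% O2 oocytes were Mrm1, an rRNA methyltransferase (13.8 against 3.79 RPM, 1.63), Mtg2, a GTPase of large subunit assembly (19.1 against 6.19 RPM, 1.49), Rbfa, a factor of small subunit assembly (22.2 against 7.73 RPM, 1.41), Rpusd3, of the pseudouridine synthase family (12.7 against 5.06 RPM, 1.17), and Nsun4, an rRNA methyltransferase (149 against 66.3 RPM, 1.15). That is 5 of 27, or 18.5%, close to the 18.7% of all genes tested. Malsu1 was the only one at least 2-fold lower, with 23.4 against 55.0 RPM (-1.20), or 3.70% of the 27 against 9.22% of all genes. Its product is known to bind the protein encoded by Mrpl14.

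The 16 genes listed as mitochondrial translation factors, under 17 symbols, were all in the table. None was 2-fold apart, against 18.7% of all genes tested higher and 9.22% lower. Their median was 0.07, and turned to -0.22 after median-ratio scaling or -0.10 after quantile normalization. The largest differences were those of Oxa1l, the insertase that receives new chains at the inner membrane (18.0 against 32.5 RPM, -0.82), and Mrrf, the ribosome recycling factor (37.1 against 22.9 RPM, 0.67). Neither of the mitochondrial rRNAs was in the table, and the RNA core of the ribosome was not analysed here.

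The cytosolic ribosomal protein genes and the nuclear genes of complex I, whose mitochondrial subunits this ribosome makes, had lower medians than the members. The 80 cytosolic ribosomal protein genes had a median of -1.60, with none 2-fold higher and 55 2-fold lower in IV 5% O2 oocytes (68.8%, against 9.22% of all genes tested), and a summed level of 3951 against 9080 RPM. The 36 Nduf genes had a median of -0.63, with 1 higher (2.78%, against 18.7% of all genes) and 13 lower (36.1%), and 929 against 1402 RPM. Among genes with more than 1000 bases of exon the medians were -0.99 for 40 cytosolic ribosomal protein genes and -0.46 for 17 Nduf genes, against 0.06 for the 56 members. The differences between these sets were not tested, since genes of 2 pooled columns are not replicates.

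**Figure D5:**
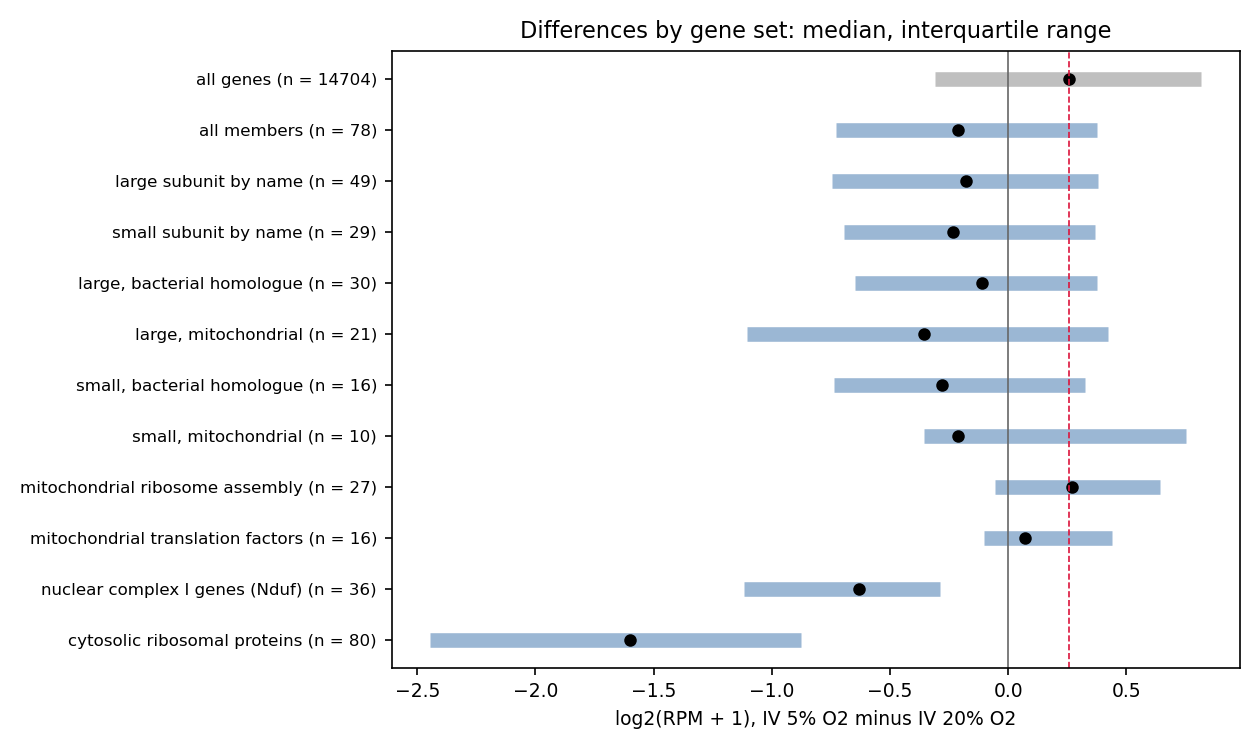
Median (point) and interquartile range (bar) of the differences in log2(RPM + 1), IV 5% O2 minus IV 20% O2 (x axis), for all genes tested, the members, their subunit and origin groups and 4 other gene sets, with the number of genes in brackets, the dashed red line at the median of all genes (0.26) and the solid line at 0. The members' point is at -0.21, left of the line for all genes, the assembly genes at 0.27 and the cytosolic ribosomal proteins at -1.60.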

How the data were processed

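RNA was measured in 4 libraries of class IV oocytes, 2 per condition, and the 20 DNA methylation libraries of the study were not analysed here. Per the methods of the study and the labels, the authors depleted ribosomal RNA, built strand-specific paired-end libraries, aligned reads to mm10 with TopHat2 2.0.9 (submitters' processing notes) and counted over merged exons in SeqMonk. The deposited values are log2, 1 column per condition. How the libraries were combined is not given in the sources used here. The values are named RPKM, but linear values were whole multiples of 1 step for 99.98% of genes in both columns (within 0.1 read), and were read as RPM without a length correction. Genes listed at 0.9 read were set to 0. 1 further value column, which matches none of the samples, was not used.

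The table's 16591 rows hold 16572 names, and for 18 repeated names the row with the highest mean was used. The 14704 genes whose mean reached 1 RPM were compared as log2(RPM + 1), a scale that understates changes of genes at low level, and called at 2-fold. Because the columns are pooled, limma was not run and no p-value was computed. Clopper-Pearson intervals used recovered reads, of which 109629353 and 29754908 lay on genes. Reads carry no molecular identifiers. Exonic length came from the basic transcripts of GENCODE vM21, matched to 16396 names by coordinates and 157 by symbol. Overlaps, divergent starts and GC content used all transcripts of this annotation. Repeated windows (every 10 bases) were taken from the exons of all transcripts and searched in the GRCm38 genome. The intervals and calls were tested on simulated data. Python 3.11.15, numpy 2.4.6, pandas 2.3.3 and scipy 1.17.1 were used.

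Members, lists and tests were chosen with earlier results of these data known. Named genes were members at least 2-fold apart, the 5 highest and 5 lowest differences and the 3 highest and 3 lowest levels per kilobase of each subunit, members named differently from their position, the Mrps18 paralogues, and listed pathway genes 2-fold apart or with the 2 largest differences. Cytosolic ribosomal protein and Nduf genes were given as counts, medians and summed levels, and none was named for its difference. Chosen after their values were seen were the length measure and its limit of 1000 bases, the printed promoters, the divergent starts, the named partners of divergent starts, Mrpl12, Mrps15, Gadd45gip1, Ptcd3, Aurkaip1, the 6 genes whose interval includes equality, and the medians over all members. Alternatives were another pseudocount (0.1 or 5), a filter at 5 RPM or none, quantile normalization, median-ratio scaling, subunit by position, a limit on repeated windows and RPM summed over rows.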

Additional observations from a re-analysis of the deposited data

How the results depend on the processing

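No paired analysis was possible because the deposited table holds 1 pooled column per condition. Leaving out each library and the replicate block were not run for the same reason, so that no value here has a check against the spread between libraries.

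Scaling moved the medians. With median-ratio scaling and quantile normalization, respectively, the median difference was -0.52 and -0.39 for all members, -0.48 and -0.34 for large and -0.54 and -0.40 for small subunit genes, while the median of all genes went from 0.26 to -0.04 and 0.06. Members at least 2-fold higher were 1 and 2 under these scalings and 2 with a pseudocount of 5, which left 6 at least 2-fold lower. Large minus small turned to -0.028 under the limit on repeated windows and kept its sign under the other 8 settings tried.

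The list medians under the same pair of scalings were 0.17 and 0.31 for the other mitochondrial ribosomal proteins, -0.0072 and 0.10 for assembly, -0.22 and -0.10 for translation factors, -1.91 and -1.77 for cytosolic ribosomal proteins and -0.94 and -0.80 for Nduf genes. The log2 ratio of the summed levels was -0.068 for large and -0.26 for small subunit genes per kilobase of exon, -0.023 and -0.27 per kilobase of all transcripts (chosen after seeing the data), and -0.22 and -0.37 with median-ratio scaling.

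Of single members, 5 changed sign. With median-ratio scaling the differences were -0.10 for Mrpl1, -0.27 for Mrpl3, -0.17 for Mrpl37, -0.23 for Mrpl38 and -0.044 for Mrps17, and with quantile normalization -0.13 for Mrpl3, -0.022 for Mrpl37 and -0.077 for Mrpl38. Another pseudocount or filter cannot change the sign of a member's difference, so that those settings were no check of sign. The causes were not tested beyond what each setting itself changes. The median counting interval of a member reached 0.11 to each side on the log2 scale.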
